A study of Mus musculus with 12 samples.

Results

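Regulatory T cells (Treg) restrain other immune cells in part through molecules that they secrete or carry on their surface. The 10 genes described here encode such mediators: Il10, Ebi3, Tgfb1, Lrrc32, Entpd1, Nt5e, Lgals1, Lgals3, Fgl2 and Nrp1. They were chosen by name for this role from 20838 genes that could be joined over all deposited files, and all 10 passed the filter on low counts. Bulk RNA sequencing had been done on live CD45+ CD4+ Foxp3-EGFP+ CD69+ cells from spleen, thrombus and vein wall, 4 libraries per tissue. All mice were of the C57BL/6 transgenic strain DEREG, in which a transgene under Foxp3 control (Foxp3-DTR/EGFP) expresses a diphtheria toxin receptor and EGFP, and all had a ligated inferior vena cava 14 days earlier, a flow-reduction model of deep vein thrombosis. Every sample was therefore CD69+, the activation and tissue-residence marker, and came from a ligated mouse. No unligated mice and no CD69- cells were analysed here, and spleen is the reference.

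Interleukin 10 and TGF-beta1 are the classical inhibitory cytokines of Treg, and Ebi3 is the shared subunit of the heterodimeric cytokines interleukin 27 and interleukin 35. TGF-beta1 is made as a latent complex that GARP, the product of Lrrc32, holds at the Treg surface until integrins release it. CD39 (Entpd1) and CD73 (Nt5e) act in sequence to turn extracellular ATP into adenosine, galectins bind surface glycans, FGL2 engages an inhibitory Fc receptor, and neuropilin 1 binds semaphorins and growth factors.

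Library depth was 9719151 to 55386086 total exon reads. Spleen 3 with 4, and vein wall 3 with 4, were near-duplicates in their counts, though labelled as separate experiments 3 and 4. Their mean chi-square per gene was 3.96 and 2.55, against 96.9 to 355 in the other 16 pairs of libraries from 1 tissue. Each of these 2 pairs was summed for that reason alone, which left 3 spleen, 4 thrombus and 3 vein wall samples. The labels do not say whether a library came from 1 mouse or a pool, so a p-value reflects how these samples vary among themselves, and that variation may be technical. By layout and gene models the files form 3 sets: spleen 1 with thrombus 1 (set 1), spleen 2, thrombus 2 and vein wall 1 (set 2, on NCBI gene models), and the remaining samples (set 3). All 12 genes of a Treg and T cell marker list had reads in every sample, with a summed level of 10070 to 16040 CPM (exon reads relative to library size after trimmed-mean normalization). The sort marker Cd69 itself differed between tissues: 240.2 to 347 CPM in spleen, 406 to 818 in thrombus and 638 to 878 in vein wall, without overlap between spleen and the others (adjusted p = 0.576 and 0.216, or 0.0246 and 0.0086 with the set as covariate, edgeR). In bulk samples, fewer cells of a type and less RNA per cell cannot be told apart.

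None of the 10 mediator genes passed an adjusted p of 0.05 between any tissues (edgeR quasi-likelihood test, Benjamini-Hochberg adjustment over 11690 genes). In thrombus against spleen 0.145% of all genes passed, in vein wall against spleen 0.111%, and in thrombus against vein wall 0%. DESeq2 called 0 of the 10 in each comparison. A fit that adds the set as covariate again called 0, beside 0.453%, 0.411% and 0% of all genes. At an unadjusted p under 0.05, 3 mediators passed in thrombus against spleen (Lgals1, Lgals3 and Fgl2, all higher, beside 4.14% of all genes) and 2 in vein wall against spleen (Il10 and Lgals1, both higher, beside 5.45%). With the covariate 2 passed in each of these (Lgals1 and Lgals3, and Il10 and Lgals1), beside 6.81% and 7.84% of all genes. None did so in thrombus against vein wall, where 2.91% of all genes did, or 4.2% with the covariate. The median log2 fold change of the 10 genes was 0.41, 0.16 and 0.14 in these comparisons, beside 0.03, -0.01 and 0.04 over all genes tested. Above 0 were 7, 6 and 7 of the 10, beside 52.1%, 49% and 52.2% of all genes tested. With the covariate 6, 5 and 8 were above 0, beside 49.2%, 49.1% and 50.5%. Both comparisons against spleen share the same 3 spleen samples.

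**Figure D1:**
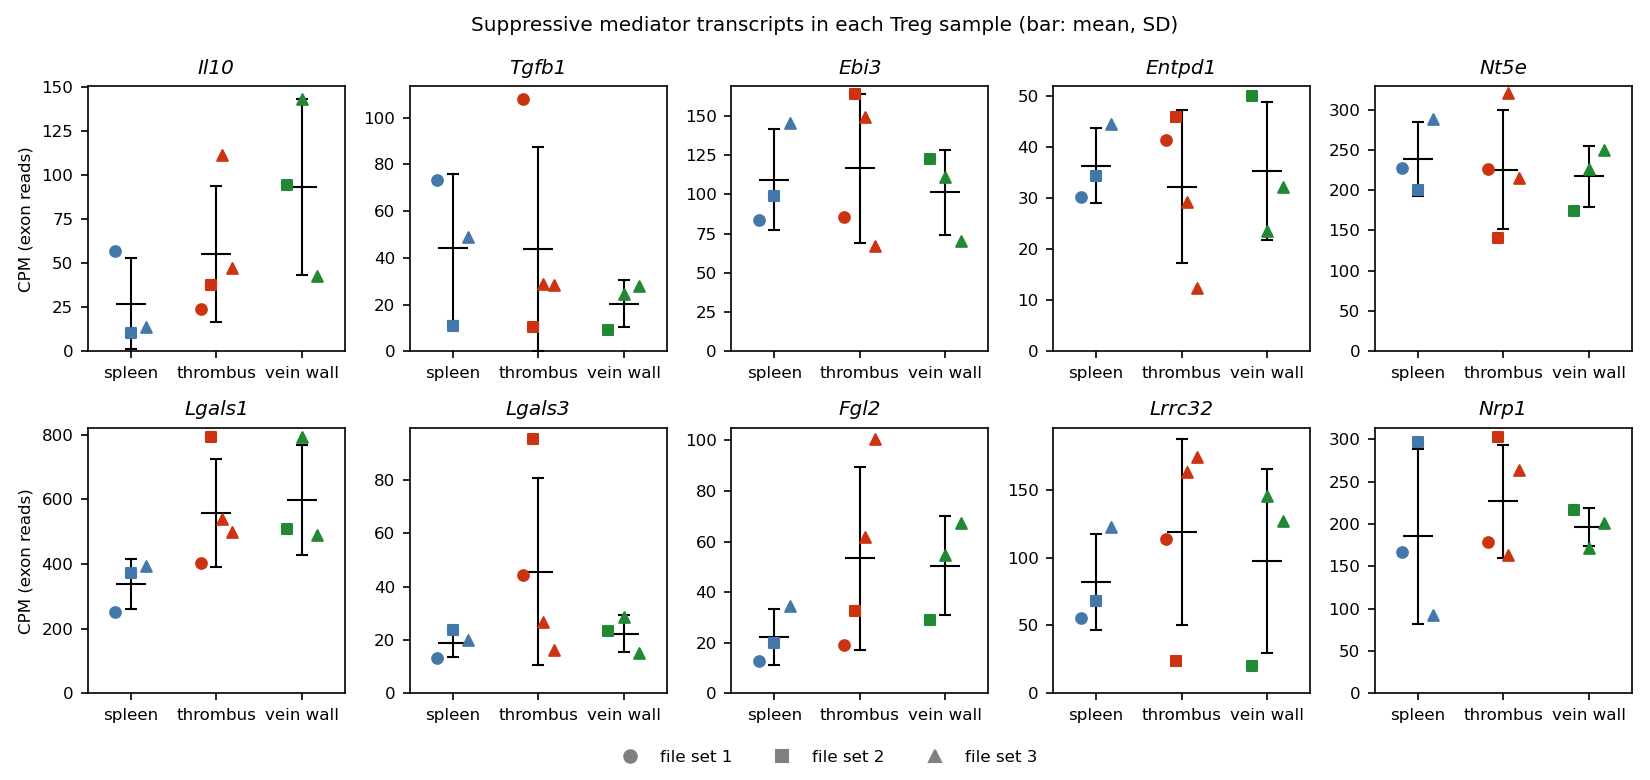
Level of each mediator gene in CPM (y axis, from 0) in each spleen, thrombus and vein wall sample. Symbols mark the set of files, and bars give mean and SD (n = 3, 4 and 3); the tissues overlap for every gene except Lgals1, whose spleen samples all lie under the thrombus and vein wall samples.

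The mediators spanned a wide range of levels. Per kilobase of exon, which allows genes to be compared, Lgals1 was the most abundant in every tissue, with 424 ± 96.5, 697 ± 208 and 746 ± 213 CPM per kilobase in spleen, thrombus and vein wall (SD, n = 3, 4 and 3). Ebi3 came next with 93.4 ± 27.5, 99.6 ± 40.5 and 86.5 ± 23.2. On the same scale Nt5e had 56.7 ± 15.2 in spleen, and Entpd1, the other ectoenzyme, had 7.57 ± 2.43. Fgl2 was the least abundant in spleen, with 5.92 ± 2.92 CPM per kilobase. In spleen, Il10 at 20.7 ± 19.8, Lrrc32 at 18.1 ± 7.26 and Tgfb1 at 17.4 ± 11.2 lay within each other's spread. Exon lengths differ between sets of files, most of all for Nrp1 (9785, 6635 and 3597 bases in sets 1, 2 and 3). The gene model sets both the length and which reads count as exonic, and introns held 33.5% to 39.9% of Nrp1 gene reads in set 2 against 54.3% to 65.6% in set 3.

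Il10 (chromosome 1, 131019845 to 131024974, plus strand, GRCm38) had the largest fitted difference between vein wall and spleen. Its level was 57.0, 10.4 and 14.1 CPM in spleen 1, 2 and 3-4. It was 24.1, 38.0, 111 and 47.6 CPM in thrombus 1 to 4, and 94.5, 143 and 43.0 in vein wall 1, 2 and 3-4. Spleen 1 was high, above 3 of the 4 thrombus samples and above vein wall 3-4, so the tissues overlapped. Vein wall exceeded spleen by a fitted log2 fold change of 1.79 ± 0.69 (SE), with adjusted p = 0.802 (edgeR, 95% interval 0.32 to 3.26), and thrombus by 1.03 ± 0.65 with adjusted p = 1.

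Within sets of files, Il10 in thrombus lay on opposite sides of spleen. The difference of log2 CPM between thrombus and spleen was -1.24 in set 1, 1.86 in set 2 and 2.36 in set 3. Vein wall minus spleen was 3.17 in set 2 and 2.47 in set 3, and set 1 has no vein wall library. With the set as covariate, vein wall against spleen gave 2.24 ± 0.85 (adjusted p = 0.518, edgeR). The same fit without spleen 1 gave 2.87 ± 0.63 with adjusted p = 0.0458, and without thrombus 1 it gave 2.89 ± 0.63 with adjusted p = 0.0477. In both, 1 library is left in set 1, which the covariate then fits by itself, so set 1 no longer contributes. Over all 32 alternatives the adjusted p ran from 0.0458 to 1. Introns held 7.37% to 62.8% of Il10 gene reads, highest in thrombus 4 and lowest in vein wall 2.

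No gene on the receptor side of this pathway passed with tissue alone. Il10ra, the ligand-binding chain, had 75.8 ± 22.3, 42.3 ± 24.2 and 40.9 ± 20.8 CPM (SD) in the 3 tissues in the same order, a log2 fold change of -0.84 ± 0.51 and -0.89 ± 0.56 against spleen (adjusted p = 1 and 0.959, edgeR). Of 14 genes for the receptor, its signalling and Il10 regulators, all tested, 0 passed. With the set as covariate 1 passed, Bhlhe40, a transcriptional repressor known to restrain Il10 in T cells. Bhlhe40 had 111 ± 85.1, 345 ± 108 and 245 ± 14.0 CPM in the tissues, with no overlap between spleen and either of the others, and log2 fold changes of 1.93 ± 0.30 (adjusted p = 0.00198) and 1.76 ± 0.33 (adjusted p = 0.0142, edgeR with covariate). Without the covariate its adjusted p was 0.392 and 0.802. Prdm1, which encodes the regulator Blimp-1, had 39.7 ± 8.37, 15.2 ± 15.3 and 11.1 ± 2.504 CPM and did not pass (adjusted p = 1 and 0.9).

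**Figure D2:**
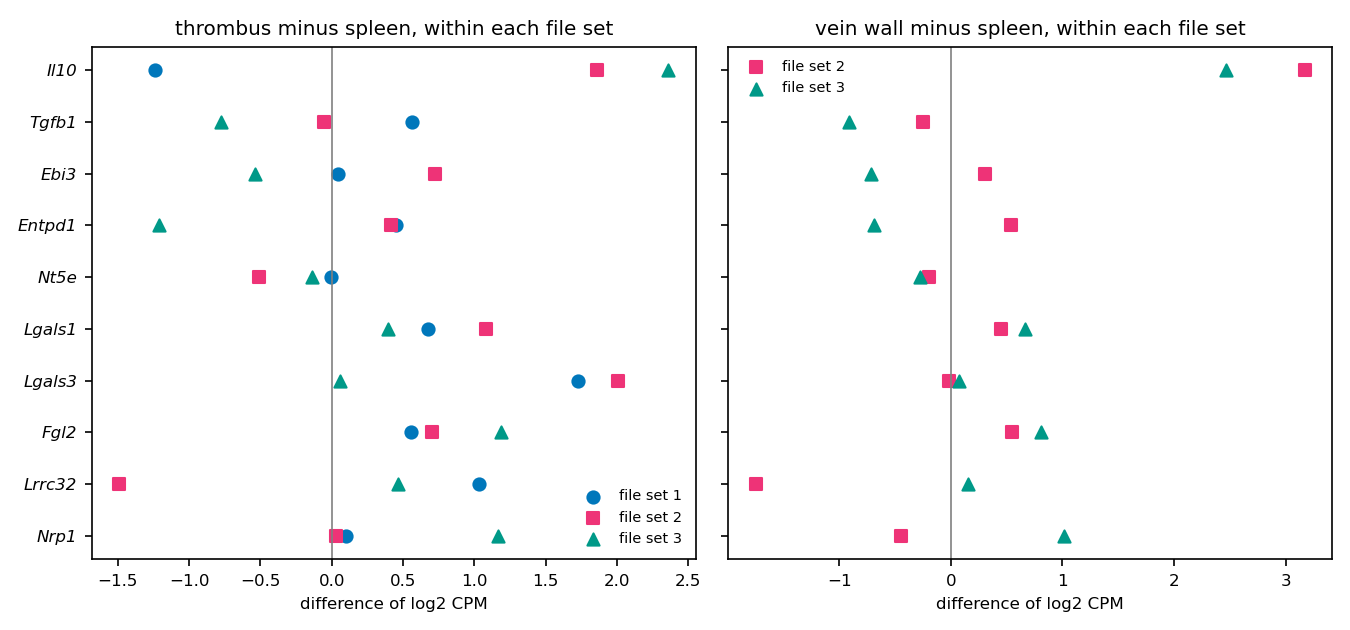
Difference of log2 CPM from spleen (x axis) for each mediator gene within each set of files, for thrombus (left, sets 1 to 3) and vein wall (right, sets 2 and 3). Lgals1 and Fgl2 lie right of 0 in every set, while Il10 in thrombus runs from -1.24 in set 1 to 2.36 in set 3.

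Ebi3 (chromosome 17, 55952623 to 55957021, plus strand) was abundant in all tissues. Its level was 83.4, 99.2 and 145 CPM in the spleen samples, 85.8, 164, 149 and 67.05 in thrombus 1 to 4, and 122, 111 and 70.6 in vein wall. The ranges overlapped throughout, and the log2 fold change was 0.09 ± 0.39 in thrombus (95% interval -0.72 to 0.91) and -0.11 ± 0.42 in vein wall (-0.98 to 0.76). Its known partner chains were scarce. Il12a, which pairs with Ebi3 in interleukin 35, had 0, 0 and 149 reads in the spleen samples, 0, 3, 30 and 0 in thrombus and 77, 58 and 0 in vein wall. Il27, the partner in interleukin 27, had 2 reads over the spleen samples and 0 in every thrombus and vein wall sample, where a count of 0 allows at most 0.0748 to 0.317 CPM. Of 10 genes of the interleukin 12 cytokine family and its receptors, 7 were tested and 0 passed. Il12rb2 had 1 read over spleen, 48 over thrombus and 1 over vein wall, and Il6st had 64.9 ± 22.9, 119 ± 81.3 and 91.6 ± 31.0 CPM.

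Ebi3 counts carry an ambiguity, since many of its exon reads were not counted as unique. Unique reads were 51.9% to 61% of its exon reads in set 1, 16.3% to 19.4% in set 2 and 48.9% to 58.9% in set 3. An antisense gene, Gm16712, overlaps it, and in set 2 the gene model of Zfp119b also reaches into it. Exon 4 of 5 of Ebi3 (155 coding bases, chr17:55956185-55956339, GRCm38, plus strand, GENCODE M21) lies wholly within an exon of Gm16712 (55954771 to 55956367, minus strand). It is shown because it is exonic in both genes in that annotation. The set 3 files give Gm16712 no exons, yet the unique share there was close to that of set 1, where it has 3, and the cause of the low unique share was not tested. Capitals mark the exon. Lower case marks the 20 bases on each side in the spliced transcript, which belong to the neighbouring exons of Ebi3.

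Ebi3 exon 4: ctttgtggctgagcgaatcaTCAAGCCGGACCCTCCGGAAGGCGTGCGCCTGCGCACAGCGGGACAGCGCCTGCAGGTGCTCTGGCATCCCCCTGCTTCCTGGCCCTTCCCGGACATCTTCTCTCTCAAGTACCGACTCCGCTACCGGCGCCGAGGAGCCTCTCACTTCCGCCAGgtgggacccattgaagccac

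A read wholly within the capitals lies within exons of both genes in GENCODE M21. In the unique reads alone, the Ebi3 log2 fold change was 0.05 ± 0.58 in thrombus and -0.29 ± 0.62 in vein wall.

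**Figure D3:**
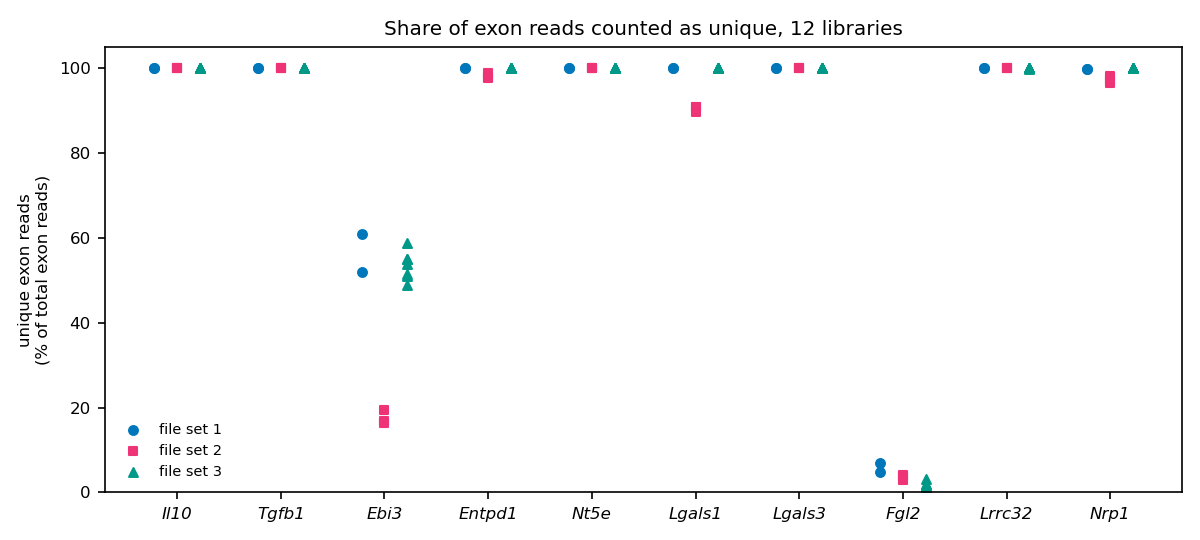
Unique exon reads as a percent of total exon reads (y axis) for each mediator gene in the 12 libraries, by set of files. Fgl2 lies between 0.684% and 6.85% and Ebi3 between 16.3% and 61%, while 6 of the other genes stay above 97% in every library and Lgals1 and Nrp1 dip in set 2.

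Tgfb1 (chromosome 7, 25687002 to 25705077, plus strand) varied with the set of files. It had 10.88, 10.46 and 9.12 CPM in the set 2 samples (spleen 2, thrombus 2 and vein wall 1). The other samples had 73.2 and 49.0 CPM in spleen 1 and 3-4, 108, 28.7 and 28.4 in thrombus 1, 3 and 4, and 24.3 and 27.9 in vein wall 2 and 3-4. All 3 set 2 samples were thus lower than the other 7, whatever the tissue. Against spleen the fitted log2 difference was -0.01 ± 0.73 for thrombus (adjusted p = 1) and -1.12 ± 0.79 for vein wall (adjusted p = 0.960, edgeR), and with the set as covariate -0.18 ± 0.42 and -0.46 ± 0.47.

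Lrrc32 (chromosome 7, 98489283 to 98502181, plus strand) showed its lowest levels in the set 2 samples from thrombus and vein wall. It had 55.5, 68.1 and 122 CPM in spleen, 113.5, 24.2, 163 and 174 in thrombus 1 to 4 and 20.27, 145 and 127 in vein wall. The tissues overlapped, with thrombus 2 and vein wall 1 under every spleen sample and the remaining samples of these tissues at or above 113.5 CPM. The log2 fold change was 0.53 ± 0.69 in thrombus and 0.25 ± 0.73 in vein wall, and turned to -0.06 ± 0.41 and -0.54 ± 0.44 with the set as covariate. None of these passed (adjusted p = 1 and 0.990 with tissue alone, edgeR). Thrombus 2 and vein wall 1 also had the highest summed levels of B cell markers (1075 and 1594 CPM, 145.1 to 445.7 in the others) and of a dendritic cell list (10970 and 11960 CPM, 1162 to 2928 in the others). In that list Cd74, H2-Aa and H2-Ab1, which B cells also express, were the most abundant. Of its 13 genes 2 had 0 reads in thrombus 2 (Xcr1 and Cd209a) and 5 in vein wall 1, and Siglech, a plasmacytoid dendritic cell gene, had 75.95 and 12.7 CPM there and at most 0.212 in the other samples. All 10 B cell markers had reads in both. The part of these cells in the Lrrc32 values was not tested.

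Of 21 other genes of TGF-beta storage, activation and signalling, 17 were tested and 0 passed in any comparison, with or without the covariate. Itgb8, whose integrin releases TGF-beta from GARP, had 39.4 ± 37.8, 27.8 ± 12.8 and 31.2 ± 18.1 CPM in spleen, thrombus and vein wall. Smad7, an inhibitory Smad, had 14.4 ± 13.4, 36.03 ± 19.87 and 29.8 ± 8.31 CPM, a log2 fold change of 1.33 ± 0.71 in thrombus (adjusted p = 1, edgeR). Ltbp4, a latent TGF-beta binding protein, stayed at 1.19 ± 1.24 CPM or less on average.

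The adenosine-producing ectoenzymes gave fitted differences near 0. Nt5e (chromosome 9, 88327197 to 88372092, plus strand) had 227, 199.7 and 289 CPM in spleen, 226.5, 140.5, 320.2 and 215 in thrombus and 175, 227 and 249.5 in vein wall. These ranges overlapped, and the 95% interval of the log2 fold change was -0.78 to 0.61 in thrombus and -0.88 to 0.61 in vein wall, around -0.08 and -0.14. Entpd1 (chromosome 19, 40612366 to 40741602, plus strand) had 30.2, 34.4 and 44.4 CPM in spleen, 41.3, 45.9, 29.3 and 12.4 in thrombus, and 50.04, 23.6 and 32.1 in vein wall. Thrombus 4 was the lowest of the 10 samples. The Entpd1 log2 fold changes were -0.17 ± 0.51 and -0.04 ± 0.55 in thrombus and vein wall, with intervals of -1.24 to 0.90 and -1.19 to 1.10. A 2-fold decrease is within both intervals, and a 2-fold increase is within that of vein wall alone. Introns held 16% to 75.3% of Entpd1 gene reads.

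Of 23 other purinergic genes, 17 were tested and 0 passed with tissue alone. With the covariate P2ry10 passed in both comparisons against spleen, with log2 fold changes of 1.96 ± 0.28 (adjusted p = 0.000814) and 1.80 ± 0.31 (adjusted p = 0.0073, edgeR). P2ry10 had 62.5 ± 29.2, 235 ± 59.3 and 192 ± 66.3 CPM, with no overlap between spleen and the other tissues. Despite its name it is known as a lysophosphatidylserine receptor and not as a nucleotide receptor. Without the covariate its adjusted p was 0.0844 and 0.324. Adora2a, the main adenosine receptor of T cells, had 18.1 ± 6.54, 31.8 ± 21.76 and 20.9 ± 6.71 CPM and did not pass. Adora2b had 0 reads in all 3 spleen samples, 0, 0, 11 and 0.742 CPM in thrombus 1 to 4, and 0.0499 to 5.26 CPM in vein wall.

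Lgals1 (chromosome 15, 78926725 to 78930465, plus strand), which encodes galectin 1, was the 1 mediator whose groups did not overlap. Its level was 251, 373 and 393.5 CPM in spleen, 402, 792, 538 and 498 in thrombus 1 to 4, and 508, 793 and 489 in vein wall. Every thrombus and vein wall sample lay above every spleen sample, thrombus 1 by a small margin. Without overlap in either direction were 5% of all genes in thrombus against spleen (2.5% higher and 2.5% lower), 13.3% in vein wall against spleen (6.76% and 6.49%) and 3.83% in thrombus against vein wall (2.35% and 1.48%), where none of the mediators was without overlap. Thrombus exceeded spleen by a log2 fold change of 0.72 ± 0.33 (adjusted p = 1, unadjusted 0.0434), and vein wall did so by 0.82 ± 0.35 (adjusted p = 0.867, unadjusted 0.0312, edgeR). With the set as covariate it was 0.68 ± 0.24 and 0.66 ± 0.27 (adjusted p = 0.405 and 0.544). Lgals1 was higher than in spleen within each set of files, by 0.68, 1.08 and 0.40 log2 CPM in thrombus and by 0.45 and 0.66 in vein wall.

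The summed level of fibroblast markers moved with the same contrast. Over 9 genes it was 0.05 to 0.45 CPM in spleen, 9.10 to 20.2 in thrombus and 13.2 to 61.7 in vein wall. Col1a2, Col3a1, Pdgfra, Pdgfrb and Mmp2 had 0 reads in all 3 spleen samples. Not all of these rose elsewhere. Pdgfra had 2 reads over thrombus and 1 over vein wall, and Pdgfrb had 36 and 0. Col3a1 and Mmp2 had 0 reads in vein wall 1. The part of fibroblast transcripts in the Lgals1 difference was not tested. In set 2, 89.7% to 90.8% of Lgals1 exon reads were unique, and 100% elsewhere.

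Lgals3 (chromosome 14, 47367751 to 47386160, plus strand), the galectin 3 gene and a product of macrophages as well as T cells, was highest in 1 thrombus sample. It had 13.25, 23.6 and 19.99 CPM in spleen, 44.2, 95.2, 26.8 and 16.1 in thrombus 1 to 4, and 23.25, 28.7 and 15.3 in vein wall. Thrombus 2 was far above the rest, thrombus 1 and 3 also exceeded every spleen sample, and thrombus 4 lay within the spleen range. Vein wall overlapped spleen. Within sets of files, thrombus minus spleen was 1.73, 2.01 and 0.06 log2 CPM in sets 1, 2 and 3. Vein wall minus spleen was -0.02 and 0.07 in sets 2 and 3. The log2 fold change in thrombus was 1.27 ± 0.60 (adjusted p = 1, unadjusted 0.048, edgeR), and 0.61 ± 0.58 without thrombus 2. In vein wall it was 0.24 ± 0.62 (adjusted p = 0.990).

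Thrombus 2 also held 1855 CPM of macrophage and monocyte markers, summed over 13 genes, against 26.8 to 276 CPM in the other 9 samples. Of these markers only Fcgr1 had 0 reads there, and Lyz2 alone had 1350 CPM. Thrombus 1, second in Lgals3 at 44.2 CPM, had 68.8 CPM of these markers. Vein wall 1, second in these markers at 276 CPM, had 23.25 CPM of Lgals3. The part of macrophage and monocyte transcripts in the Lgals3 values was not tested. Of 11 other galectin and glycosylation genes, 8 were tested and 0 passed. Lgals9, another T cell galectin, had 392 ± 116, 447 ± 125 and 546 ± 91.2 CPM. Mgat1 and Mgat5, enzymes that build the N-glycans galectins bind, had log2 fold changes of -0.55 ± 0.47 and 0.37 ± 0.58 in thrombus.

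**Figure D4:**
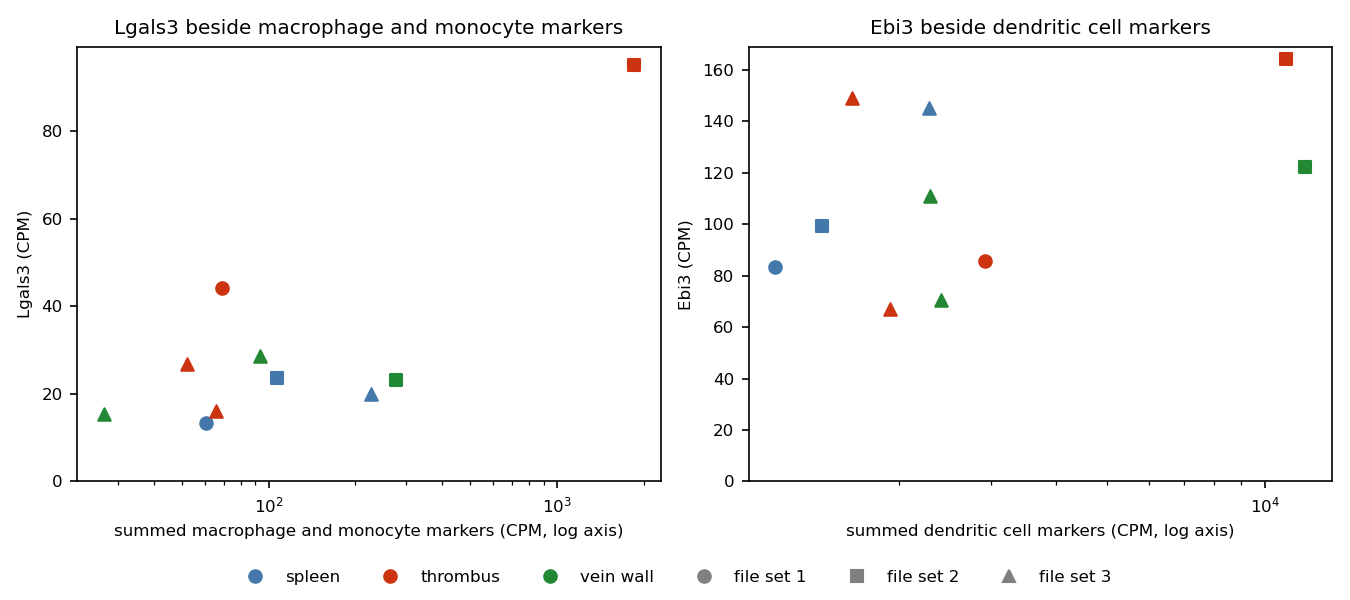
Lgals3 in CPM against summed macrophage and monocyte markers (left) and Ebi3 in CPM against summed dendritic cell markers (right), both x axes logarithmic, 1 point per sample, coloured by tissue. Thrombus 2 stands alone at 1855 CPM of macrophage markers and 95.2 CPM of Lgals3, and thrombus 2 and vein wall 1 hold the most dendritic markers, with Ebi3 at 164 and 122 CPM against 67.05 to 149 in the others.

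Fgl2 (chromosome 5, 21372642 to 21378374, plus strand) encodes fibrinogen-like protein 2, which as a membrane protein can also cleave prothrombin. It had 12.8, 19.8 and 34.6 CPM in spleen, 18.95, 32.4, 61.9 and 100.4 in thrombus 1 to 4, and 29.1, 54.7 and 67.4 in vein wall. Thrombus 3 and 4 and vein wall 2 and 3-4 exceeded every spleen sample, and the remaining thrombus and vein wall samples lay within the spleen range. These 4 are the set 3 samples of thrombus and vein wall, and in spleen too Fgl2 was highest in the set 3 sample. The same 4 samples had the highest sums of pancreas markers (12 genes), 269, 605, 222 and 313 CPM against 22.5 to 117 in the other 6. Within thrombus and within vein wall, set 3 and a high pancreas sum therefore cannot be told apart. In each of the 4 only Prss1 was at 0. Of 11 pancreas markers tested, 10 had a log2 fold change above 0 in each comparison against spleen. Cela1 had its highest mean in spleen, with 51.1 ± 51.8, 26.7 ± 13.1 and 42.7 ± 16.5 CPM (SD) in spleen, thrombus and vein wall. The part of the set and of pancreas transcripts in the Fgl2 values was not tested. Thrombus exceeded spleen by a log2 fold change of 1.25 ± 0.58 (adjusted p = 1, unadjusted 0.0433), and vein wall by 1.17 ± 0.60 (adjusted p = 0.915, edgeR). With the set as covariate it was 0.87 ± 0.42 and 0.59 ± 0.46. It was positive within each set of files, 0.56, 0.70 and 1.19 in thrombus and 0.55 and 0.81 in vein wall, on the log2 CPM scale.

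Only 0.684% to 6.85% of Fgl2 exon reads were counted as unique. The gene lies within Ccdc146 on the opposite strand, but no Fgl2 exon overlaps a Ccdc146 exon in GENCODE M21, and Ccdc146 itself had 0 to 4 exon reads per library. Unique reads alone gave 0.86 ± 1.55 in thrombus and 0.73 ± 1.63 in vein wall, too imprecise to give a direction. Of 5 genes listed with FGL2 (Fgl1, Fcgr2b, Fcgr3, Fcer1g and Tigit, the last also among the further suppressive genes), 4 were tested and 0 passed. Fcgr2b, the inhibitory receptor that FGL2 binds, had 6.87, 2.09 and 1.18 CPM in spleen, 2.14, 47.9, 1.80 and 0 in thrombus and 19.9, 9.19 and 5.19 in vein wall. Its highest values were in thrombus 2 and vein wall 1. These samples had the highest sums of B cell markers, of the dendritic cell list and of macrophage and monocyte markers, and none of these links was tested. Fcgr3, an activating Fc receptor, had 3.65, 10.6 and 4.79 CPM in spleen, 4.87, 65.8, 0.212 and 0.0927 in thrombus, and 3.10, 0 and 0 in vein wall. Its fitted log2 difference in thrombus was 1.48 ± 2.21, and -1.80 ± 1.30 with the set as covariate (adjusted p = 1 and 0.958, edgeR). In vein wall it was -2.64 ± 2.43, and -6.24 ± 1.62 with the covariate (adjusted p = 0.961 and 0.152, edgeR). All vein wall reads of Fcgr3 were in vein wall 1, and the other 2 samples were at 0.

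Nrp1 (chromosome 8, 128358604 to 128503363, plus strand) had 167, 297 and 92.3 CPM in spleen, 179, 302.5, 164 and 264 in thrombus, and 217, 172 and 201 in vein wall. The spleen samples alone covered nearly all of the range of the other tissues. The log2 fold change was 0.29 ± 0.38 in thrombus (95% interval -0.50 to 1.09) and 0.08 ± 0.40 in vein wall (-0.76 to 0.93). Within sets it was near 0 in thrombus of set 1 and 2 (0.10 and 0.03) and 1.17 in set 3, and in vein wall it was -0.45 in set 2 and 1.01 in set 3. Of 17 other genes of neuropilin ligands and co-receptors, 11 were tested and 0 passed. Sema4a, a ligand known to act on Treg through neuropilin 1, had 9.62 ± 5.01, 6.98 ± 6.61 and 5.67 ± 6.45 CPM. Plxna1, a plexin co-receptor, had 19 reads over spleen, 149 over thrombus and 157 over vein wall, and Flt1 had 2, 17 and 33.

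**Figure D5:**
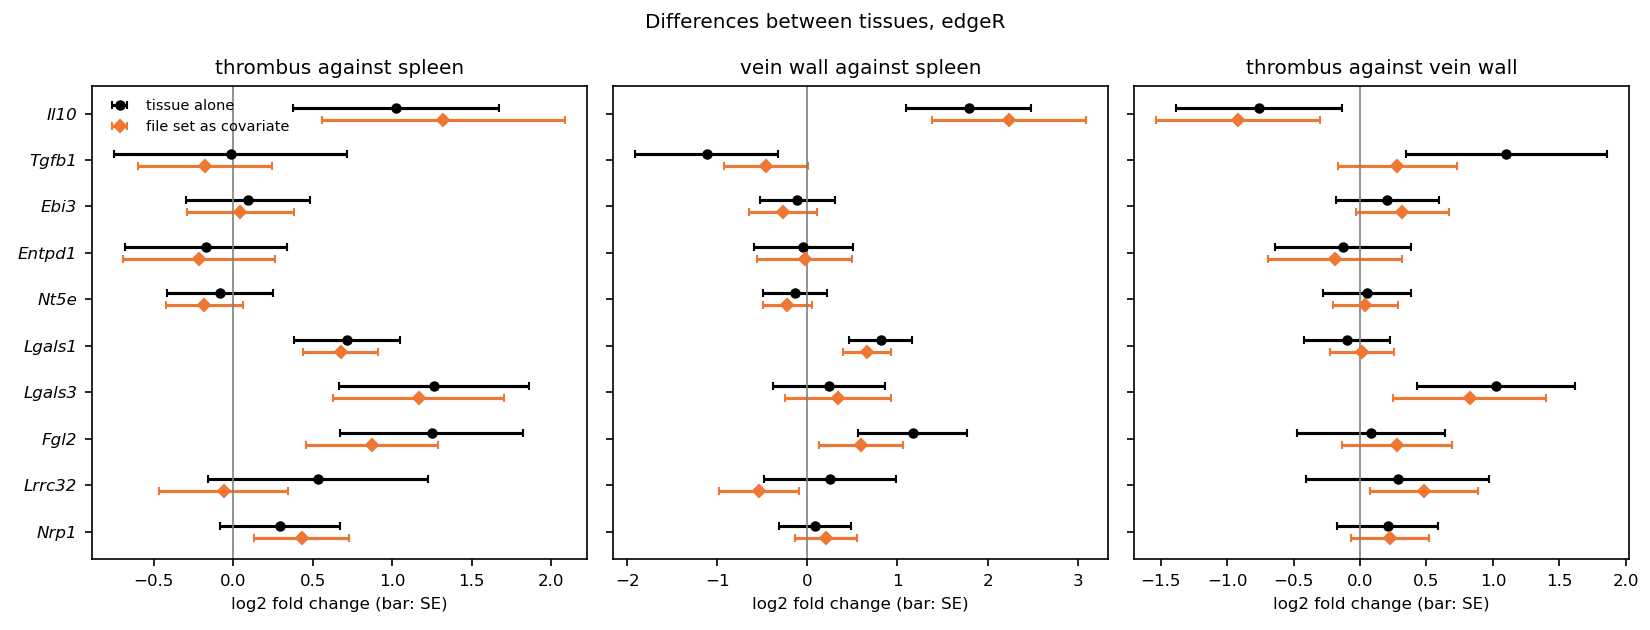
Log2 fold change (x axis, bar: SE) of each mediator gene in the 3 comparisons, with tissue alone (black) and with the set as covariate (orange). Il10 in vein wall against spleen lies farthest from 0, at 1.79 and 2.24, and no point passed an adjusted p of 0.05.

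Between thrombus and vein wall the largest fitted differences were those of Tgfb1 and Lgals3, higher in thrombus by 1.10 ± 0.76 and 1.02 ± 0.59, and of Il10, lower by -0.76 ± 0.63 on the log2 scale (adjusted p = 0.999 each, edgeR). With the set as covariate Tgfb1 was at 0.28 ± 0.45, Lgals3 at 0.82 ± 0.57 and Il10 at -0.92 ± 0.62 (adjusted p = 0.998 each, edgeR). For Lgals1 and Fgl2 the differences were -0.10 ± 0.33 and 0.08 ± 0.56. The 95% interval for Lgals1 was -0.78 to 0.58 and for Fgl2 -1.09 to 1.25, so the latter leaves room for a 2-fold difference either way.

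Of 22 further suppressive genes outside the list of 10, 21 were tested and 0 passed with tissue alone. With the covariate 1 passed, Areg, the tissue-repair factor amphiregulin, at a log2 fold change of 5.13 ± 0.39 in thrombus and 5.52 ± 0.43 in vein wall. Gzma, a granzyme, had 0, 0.107 and 0.725 CPM in spleen, 4.996, 91.3, 16.3 and 0 in thrombus and 16.8, 23.9 and 0.0249 in vein wall, and did not pass. Havcr2, which encodes the checkpoint receptor TIM-3, had 0.394 ± 0.468, 9.39 ± 8.39 and 4.59 ± 2.38 CPM, with adjusted p = 0.816 and 0.883 against spleen (edgeR).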

How the data were processed

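The deposited files give, per gene and library, whole-number counts of total and unique exon, intron and gene reads, per the file headers; the authors' RPKM columns were not used. The submitters' processing notes name GRCm38 as the genome build; aligner and counter: not given in the sources used here. Files of the 3 sets were joined by gene ID, symbol and synonym into 20838 genes holding 92.2% to 96.3% of exon reads. Near-duplicate libraries (2 of 18 replicate pairs) were summed.

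The main test used edgeR 4.0.16 under R 4.3.3 on total exon reads (quasi-likelihood F test, robust, TMM, default low-count filter, tissue as the factor, 10 samples, 11690 genes). The script was tested on simulated data, where changes of 2-fold and 4-fold were seldom called, so 0 calls does not show equal levels; the pass criteria of that test were revised after a first criterion, on the correlation of true and fitted changes over all changed genes, had failed. Standard errors were derived from the fold change and F statistic, and 95% intervals from the t distribution. Per-length levels are CPM divided by exon length. DESeq2 1.42.0 and limma 3.58.1 served the alternatives and the removal of set effects. These intervals include the spread between samples. Floors for a count of 0 (3 reads) cover counting error only. The mediators and lists were chosen with earlier results of these data known. All 10 mediators were named, and of each pathway list the genes passing in any comparison with or without the covariate, the 2 with the largest change in thrombus, and fixed partners; a few others named (Lgals9, Cd74, H2-Aa, H2-Ab1, Siglech, Lyz2, Cd69) were chosen after their values were seen.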

Additional observations from a re-analysis of the deposited data

How the results depend on the processing

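The count of mediators passing in vein wall against spleen ranged from 0 to 1 when single samples were left out; the 1 was Il10, with the covariate and without spleen 1 or thrombus 1. The count was 0 in the other 2 comparisons and in every other alternative. Il10, Lgals1 and Fgl2 kept their direction against spleen in all 32 alternatives, as did Lgals3 in thrombus. Several differences that did not pass changed sign in some alternatives; the cause was not tested. The following are log2 fold changes. With the set as covariate the values were Lrrc32 -0.0591 in thrombus against spleen, Lrrc32 -0.54 in vein wall against spleen, Lgals1 0.0156 in thrombus against vein wall. With 12 separate libraries the values were Ebi3 -3.371e-06 in thrombus against spleen, Fgl2 -0.0123 in thrombus against vein wall. With total gene reads the values were Ebi3 -0.0895 in thrombus against spleen, Entpd1 0.237 in thrombus against vein wall, Nt5e -0.07 in thrombus against vein wall, Fgl2 -0.0818 in thrombus against vein wall. With the covariate on 12 libraries the values were Ebi3 -0.0291 in thrombus against spleen, Lrrc32 -0.371 in vein wall against spleen, Lgals1 0.0897 in thrombus against vein wall. With the covariate on unique reads the values were Lrrc32 -0.0579 in thrombus against spleen, Lrrc32 -0.538 in vein wall against spleen, Lgals1 0.0154 in thrombus against vein wall. Without set 2, an alternative chosen after seeing the data, the values were Ebi3 -0.159 in thrombus against spleen, Fgl2 -0.0115 in thrombus against vein wall. Without a low-count filter the values were Nt5e -0.0136 in thrombus against vein wall. With the replicate block the values were Nt5e -0.0545 in thrombus against vein wall, Fgl2 -0.2997 in thrombus against vein wall. Without set 1, likewise chosen later, the values were Lgals1 0.00933 in thrombus against vein wall. With single samples left out, thrombus against spleen ran Tgfb1 -0.982 to 0.485, Ebi3 -0.203 to 0.381, Entpd1 -0.52 to 0.379, Nt5e -0.313 to 0.102, Lrrc32 -0.598 to 0.938, Nrp1 -0.0318 to 0.833. With single samples left out, vein wall against spleen ran Tgfb1 -1.54 to 0.00265, Ebi3 -0.554 to 0.15, Entpd1 -0.357 to 0.692, Nt5e -0.322 to 0.0262, Lgals3 -0.0967 to 0.945, Lrrc32 -0.946 to 0.757, Nrp1 -0.293 to 0.632. With single samples left out, thrombus against vein wall ran Ebi3 -0.0122 to 0.574, Entpd1 -0.366 to 0.188, Nt5e -0.162 to 0.222, Lgals1 -0.321 to 0.304, Fgl2 -0.418 to 0.382, Lrrc32 -0.21 to 0.775, Nrp1 -0.0362 to 0.372. Of all genes, 17, 13 and 0 passed in the 3 comparisons, against 80, 66 and 2 without the filter, 103, 116 and 10 with DESeq2, 53, 48 and 0 with the covariate, 35, 51 and 0 with 12 libraries, 110, 210 and 0 with both, 49, 36 and 0 with the covariate on unique reads, 9 in thrombus with gene reads, 7 in vein wall with unique reads, 25 and 25 against spleen without set 1, and 6 to 50, 5 to 65 and 0 to 1 with single samples left out. Experiment numbers were not taken as pairs, since not every same-numbered pair correlated above 0.1. The correlations were -0.0683 to 0.397, 5 of 12 over 0.1 (spleen with thrombus 0.0937 to 0.397, all within a set of files), and 6 of 12 libraries correlated best with their own number. The replicate block gave 32 and 24 genes against spleen and 0 mediators. The lowest exon count of a mediator in a sample was 134 reads.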

Other observations

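After removal of set effects with tissue kept, Lgals1 and Lgals3 had a Pearson r of 0.81 over the 10 samples on the log2 CPM scale, and 0.60 before removal. Il10 and Tgfb1 had -0.80 and -0.11. After removal, these pairs had the highest and the lowest r among all pairs of the 10 mediators. The genes with the pattern closest to Lgals1 were Hagh, Il1b and Col1a2 (0.952, 0.948 and 0.947), and to Il10 Zbtb40, Scin and Ube2v2 (0.936, 0.936 and 0.935). These are descriptions over samples that share sets and tissues, picked from all genes tested.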
